A study of Rattus norvegicus and Mus musculus with 24 samples.

Results

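The carbonic anhydrases described here are 9 genes, CA2, CA3, CA4, CA5B, CA8, CA9, CA12, CA13 and CA14, taken by symbol from kidney RNA sequencing of cystinosis models. They were chosen with their differences between Ctns KO and Ctns WT animals already known, so these differences are given as a description without a test. All 9 were found among the 17376 symbols of the mouse table and among the 14931 of the rat table, and each had whole reads in every library. Ctns encodes cystinosin, the transporter that exports cystine from lysosomes, and the study asked how its loss changes the epithelial cells of the kidney.

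Each library came from 1 animal. The mice, 4 with the Ctns KO genotype and 4 Ctns WT, were on the C57BL/6 background, and the rats, 8 per genotype, on the Sprague-Dawley background. Both are Ctns knockout lines compared with control littermates, and no treatment is named in the labels. The study's methods say that its mice were female, at several ages. Which age the sequenced mice had, and the age and sex of the rats, are not given in the sources used here. The rats carry sample numbers in 2 ranges, 17 to 24 and 25 to 32, each holding 4 KO and 4 WT animals. What separates the ranges is not given by the labels. The methods name kidney cortex, whereas the labels name cortex, proximal tubule cells and an extraction from dissected tubules. Markers of proximal tubule, such as SLC34A1, were present in every library, but so were those of other segments, with a summed level of thick limb and distal tubule markers of 8170 to 9480 CPM (reads scaled by the library total) in WT mice and 2810 to 4540 CPM in WT rats. In such bulk tissue, fewer cells of a type and less RNA per cell cannot be told apart.

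Carbonic anhydrases interconvert carbon dioxide and bicarbonate. In the proximal tubule, cytosolic CA2 and the membrane-anchored CA4 and CA14 serve the recovery of filtered bicarbonate, and CA2 also supplies protons to the acid-secreting cells of the collecting duct. CA12 and CA9 are transmembrane enzymes whose active site faces outward, and CA9 is a classic target of the hypoxia-inducible factor. CA5B acts in mitochondria and CA13 in the cytosol. CA8 lacks the classical enzyme activity, and CA3 is a cytosolic form of low activity that is best known from skeletal muscle and fat.

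Because CA9 and CA12 are known from hypoxia and CA4 and CA12 were the members found lower in Ctns KO rats, the starts of these genes are shown. RefSeq (GRCr8) gave 300 bases, from 250 before to 50 after the start, for 5 of the 9 members (CA4, CA5B, CA9, CA12 and CA14). The rat genes are Car4 at chr10:70325108-70325407, Car9 at chr5:62558774-62559073 and Car12 at chr8:76169565-76169864, all on the plus strand. Capitals mark the core hypoxia motif ACGTG or its reverse complement CACGT.
CA4: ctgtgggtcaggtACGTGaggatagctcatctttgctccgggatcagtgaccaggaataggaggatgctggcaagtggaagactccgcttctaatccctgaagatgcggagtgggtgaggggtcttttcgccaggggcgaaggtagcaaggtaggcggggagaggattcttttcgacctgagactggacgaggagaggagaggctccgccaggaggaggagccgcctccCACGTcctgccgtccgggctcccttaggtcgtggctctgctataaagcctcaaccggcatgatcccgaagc
CA9: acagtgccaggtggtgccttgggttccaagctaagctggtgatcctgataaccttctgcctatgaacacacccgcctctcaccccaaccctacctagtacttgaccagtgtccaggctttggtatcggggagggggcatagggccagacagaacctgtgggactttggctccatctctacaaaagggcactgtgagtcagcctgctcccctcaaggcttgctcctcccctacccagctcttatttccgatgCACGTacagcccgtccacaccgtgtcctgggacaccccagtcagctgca
CA12: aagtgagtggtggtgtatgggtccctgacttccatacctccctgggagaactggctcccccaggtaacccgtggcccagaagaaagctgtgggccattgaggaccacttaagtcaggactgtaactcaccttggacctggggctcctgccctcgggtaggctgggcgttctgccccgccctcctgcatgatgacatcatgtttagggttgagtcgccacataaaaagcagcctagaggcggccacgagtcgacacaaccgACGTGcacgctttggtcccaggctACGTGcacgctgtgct
CA4 held the motif 237 and 21 bases upstream of the start, CA9 once at base 2 downstream, and CA12 at bases 11 and 35 downstream. CA14 held it once, 54 bases upstream, and the CA5B window held none. Both strands of all 33469 rat promoters of the same length were searched, and 19.3% held it at least once. None of the 5 windows held the longer palindrome CACGTG, which contains the motif. A match is a run of letters and says nothing of a bound factor.

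Library depth was 19309449 to 44449859 reads on genes in the mice and 24684097 to 40629873 in the rats. CTNS had 15.5 to 16.9 CPM in Ctns KO mice and 39.0 to 47.4 CPM in Ctns WT mice. KO mouse 3 stood apart in XIST, the RNA of the inactive X chromosome, with 49 reads (2.54 CPM) against 892 to 1120 CPM in the other 7 mice, while DDX3Y, KDM5D, UTY and USP9Y of the Y chromosome had 0 reads in all 8. The part of this difference in the values of KO mouse 3 was not tested, and CA3 and CA13 are also given without that mouse. In rats the CTNS transcript lay at 16.8 to 23 CPM in KO and 19 to 26.4 CPM in WT animals, so its level does not check the genotype of single rats. Rat levels below are CPM of the library total, and differences are log2 fold changes from edgeR's quasi-likelihood fit with TMM scaling. On plain CPM the median over 10827 genes lay 0.13 (log2) higher in KO than in WT rats 25 to 32 and fell by 0.12 (log2) from WT rats 17 to 24 to WT rats 25 to 32, whereas after TMM scaling these medians were -0.04 and 0.01. Differences are therefore relative to TMM scaling, and overlap of groups is stated in CPM, with TMM-scaled CPM named where it differs.

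CA3 was the member that differed most between Ctns KO and Ctns WT rats. Among rats 17 to 24, KO rats 18, 20, 22 and 24 had 3.59, 8.87, 4.93 and 6.97 CPM, and WT rats 17, 19, 21 and 23 had 0.40, 0.25, 0.307 and 0.126 CPM. Among rats 25 to 32, KO rats 26, 28, 30 and 32 had 16.7, 25, 23.8 and 19.8 CPM, and WT rats 25, 27, 29 and 31 had 0.595, 0.714, 0.624 and 0.561 CPM. Every KO rat lay above every WT rat, and within each genotype every rat of 25 to 32 lay above every rat of 17 to 24. The mean was 13.7 ± 8.64 CPM (SD, n = 8) in KO and 0.447 ± 0.207 CPM (SD, n = 8) in WT rats, with a log2 difference of 4.81 (standard error 0.47). Within the ranges it was 4.48 (standard error 0.36, 4 rats against 4) in 17 to 24 and 4.91 (standard error 0.17, 4 against 4) in 25 to 32. In WT rats CA3 rested on 4 to 29 reads per library, against 112 to 721 in KO rats, and it passed the filter on low counts only through the KO group.

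**Figure D1:**
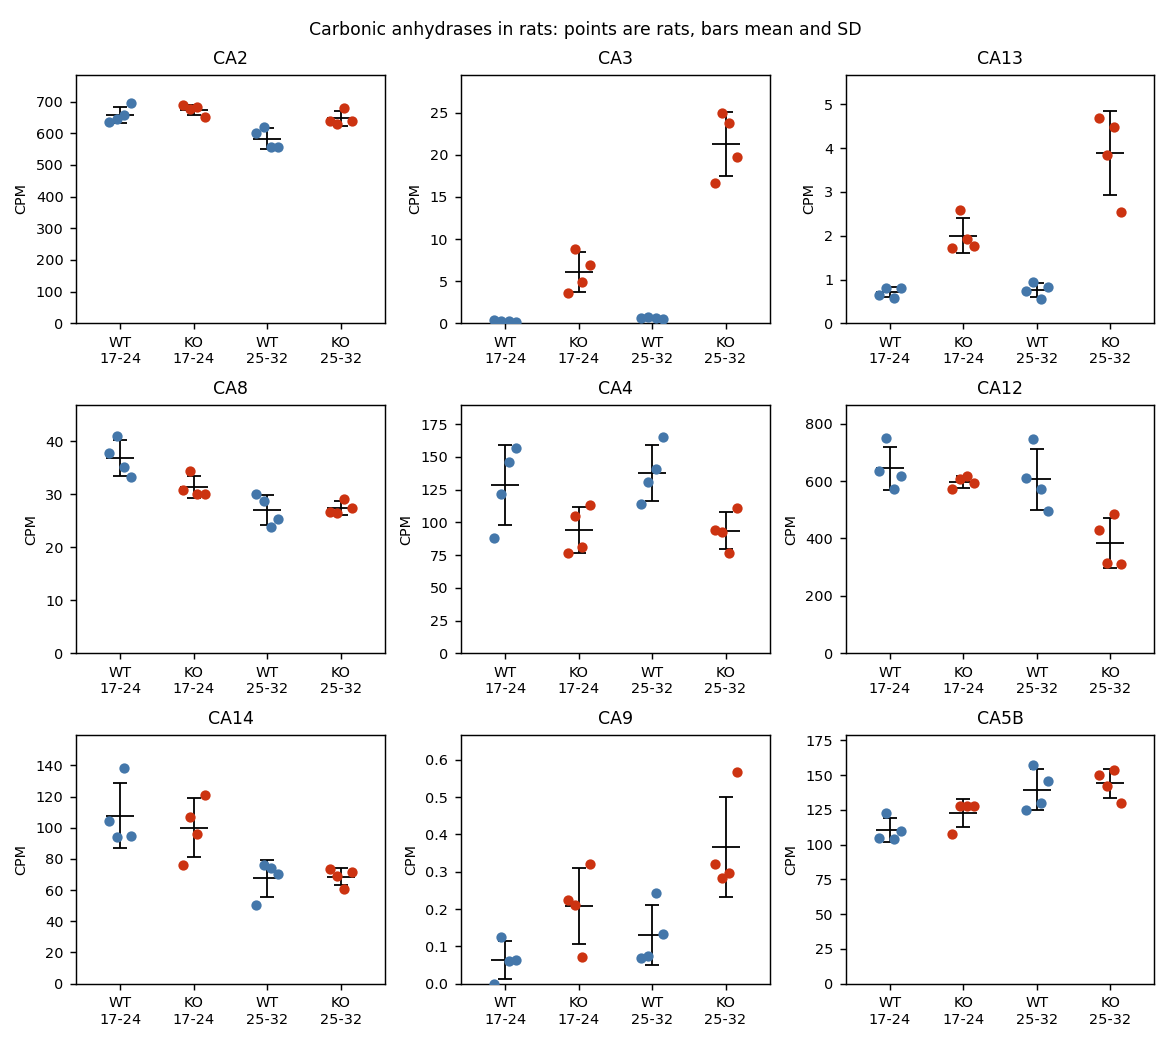
The 9 carbonic anhydrases in rats, 1 panel per gene, in CPM (axes start at 0 and differ between panels). Points are single rats in 4 groups by genotype and sample number range, and black bars give the mean and SD of 4 rats. CA3 and CA13 sit above all WT rats in every KO rat, CA4 and CA12 are lower in KO rats 25 to 32, and CA2 stays between 555 and 694 CPM throughout.

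CA13 was the other member with KO rats above all WT rats. It had 1.73, 2.58, 1.92 and 1.77 CPM in KO rats 18, 20, 22 and 24, and 4.69, 3.84, 4.49 and 2.55 CPM in KO rats 26, 28, 30 and 32. WT rats spanned 0.583 to 0.817 CPM in 17 to 24 and 0.555 to 0.935 CPM in 25 to 32. The log2 difference was 1.89 (standard error 0.23, 8 against 8) over all rats, 1.46 (standard error 0.22) in 17 to 24 and 2.17 (standard error 0.23) in 25 to 32. CA13 is low in this tissue, with 16 to 38 reads per WT library and 53 to 146 per KO library.

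CA2, the main cytosolic form of kidney, differed little by genotype. KO rats had 651 to 688 CPM in 17 to 24 and 630 to 681 CPM in 25 to 32, and WT rats had 636 to 694 and 555 to 619 CPM. In rats 25 to 32 the plain CPM of KO and WT rats did not overlap, but after TMM scaling they did, and the fitted log2 difference there was -0.01 (standard error 0.06). CA8 had 30 to 34.4 CPM in KO and 33.2 to 41.0 CPM in WT rats 17 to 24, with a log2 difference of -0.25 (standard error 0.07), and these groups overlapped in CPM but not after TMM scaling. Leaving out any of 7 of the 8 rats, WT rat 23 being the exception, brought this value back inside the threshold, with differences of -0.29 to -0.21. In rats 25 to 32, CA8 had 26.4 to 29.2 CPM in KO and 23.9 to 30.1 CPM in WT animals, with a log2 difference of -0.14 (standard error 0.08).

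Of the membrane-bound members, CA4 and CA12 were lower in Ctns KO rats. CA4, the glycolipid-anchored form of the brush border, had 76.7, 105, 81.5 and 113 CPM in KO rats 18, 20, 22 and 24 and 94.1, 92.8, 77.0 and 111 CPM in KO rats 26, 28, 30 and 32. WT rats 17, 19, 21 and 23 had 88.1, 122, 146 and 157 CPM, and WT rats 25, 27, 29 and 31 had 114, 131, 141 and 165 CPM. The groups overlapped in 17 to 24, where WT rat 17 was low, and did not in 25 to 32. The log2 difference was -0.60 (standard error 0.13) over all rats, -0.47 (standard error 0.20) in 17 to 24 and -0.72 (standard error 0.14) in 25 to 32.

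CA12 differed between genotypes mainly among rats 25 to 32. KO rats 26, 28, 30 and 32 had 428, 314, 485 and 310 CPM, all below the 610, 746, 572 and 495 CPM of WT rats 25, 27, 29 and 31. In 17 to 24, KO rats had 571 to 617 CPM and WT rats 573 to 750 CPM, and the groups overlapped. The log2 difference was -0.82 (standard error 0.15) in 25 to 32, -0.12 (standard error 0.07) in 17 to 24 and -0.44 (standard error 0.14) over all rats. The value over all rats was no longer past the threshold without KO rat 26, 30 or 32 or WT rat 25, 27 or 29, with differences of -0.43 to -0.35. Whether the differences in the 2 ranges differ from each other was not tested, because the members were chosen on them.

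CA14, which sits in the proximal tubule membrane, overlapped between genotypes in both ranges. It had 76.3 to 121 CPM in KO and 94.0 to 138 CPM in WT rats 17 to 24, and 60.7 to 73.3 CPM in KO and 50.3 to 76.0 CPM in WT rats 25 to 32. The log2 difference over all rats was -0.14 (standard error 0.17). CA9 was near the detection limit and did not pass the filter on low counts, so it has no difference in the fit used here. Without that filter its log2 difference over all rats was 1.43 (standard error 0.43) and past the threshold. It had 2 to 14 reads per KO library and 0 to 7 per WT library, with 0.225, 0.212, 0.0725, 0.321, 0.321, 0.282, 0.297 and 0.567 CPM in the 8 KO rats in order of sample number. WT rats of 25 to 32 had 0.0701, 0.0738, 0.243 and 0.132 CPM, all under the KO rats of that range, while in 17 to 24 the groups overlapped. WT rat 17 had 0 reads, which allows up to 0.12 CPM (3 reads, counting error only). Mitochondrial CA5B had 108 to 154 CPM in KO and 104 to 157 CPM in WT rats, with a log2 difference of -0.01 (standard error 0.10).

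With an adjusted p under 0.05 as the threshold (Benjamini-Hochberg over all symbols tested), 4 of the 8 members tested in rats were past it: CA3 and CA13 higher, CA4 and CA12 lower. Of all symbols tested in that comparison, 27.5% were past it, 15.2% higher and 12.3% lower. In rats 17 to 24 it was 3 of 8 members (CA3 and CA13 higher, CA8 lower) beside 7.26% of all symbols (5.07% higher, 2.19% lower). In rats 25 to 32 it was CA3, CA13, CA4 and CA12 again, beside 43.8% (21.8% higher, 22.1% lower). In plain CPM, KO and WT rats did not overlap for 2 of the 9 members beside 4.96% of all symbols over all rats, for 2 beside 10.7% in 17 to 24, and for 6 beside 35.8% in 25 to 32. After TMM scaling these counts were 2, 3 and 5, and among all symbols of rats 25 to 32 the shares of higher and lower symbols went from 28.9% and 6.95% to 16.7% and 16.5%. As the members were chosen on these contrasts, nothing is read from the counts.

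**Figure D2:**
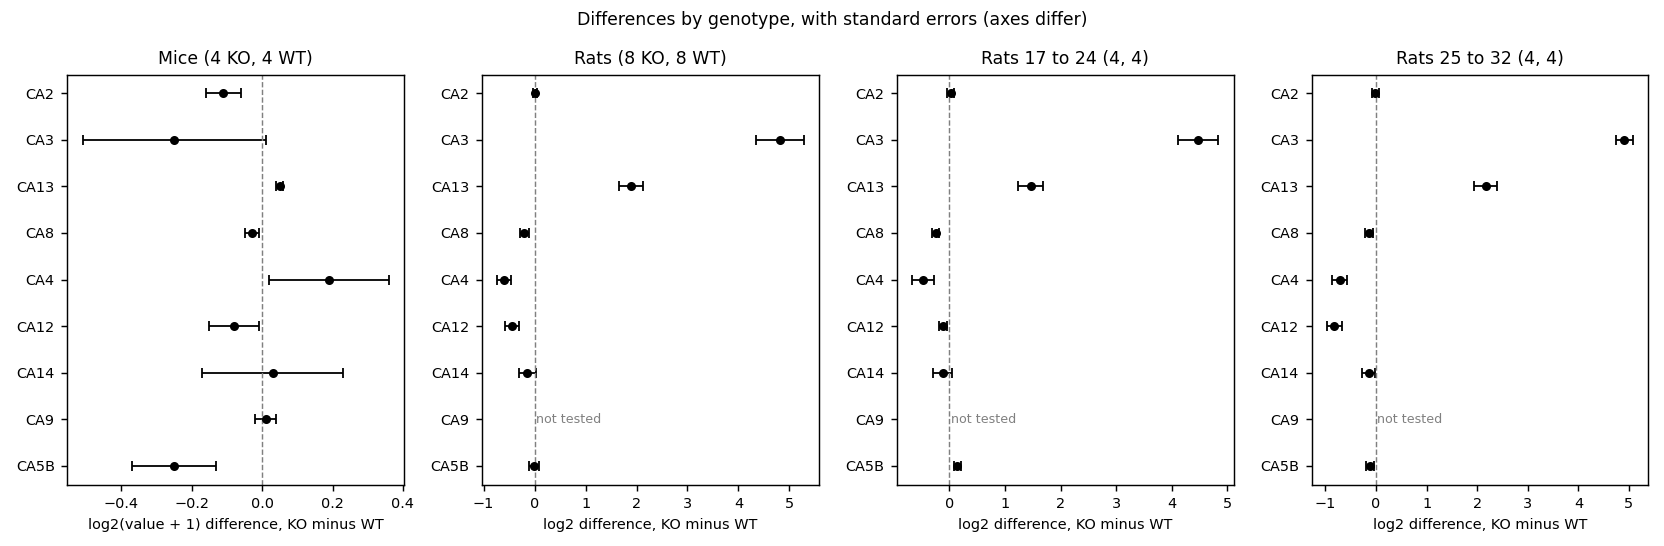
Log2 differences of the 9 members, Ctns KO minus Ctns WT, in mice and in the 3 rat comparisons. Points are fitted values and bars are standard errors, mouse values are on the log2(scaled value + 1) scale, and the axes differ between panels. In rats CA3 lies at 4.48 to 4.91 and CA13 at 1.46 to 2.17. In mice all 9 values lie between -0.25 and 0.19, on a scale that understates the changes of low genes. The sizes of mouse and rat values are therefore not comparable.

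The members were chosen on differences by genotype, with earlier results of these data known. The difference between the number ranges was tested within each genotype with edgeR's quasi-likelihood test (25 to 32 against 17 to 24, 4 rats each). The genotype differences came from the same libraries, so these p-values are not independent of the choice. The libraries carry separate sample numbers, and the p-values measure only the spread between them. In Ctns WT rats CA3 had 0.623 ± 0.0656 CPM in 25 to 32 and 0.271 ± 0.115 CPM in 17 to 24 (SD, n = 4 each), with a log2 difference of 1.33 (standard error 0.32). Because it passed the filter on low counts only through the rats of 25 to 32, at 4 to 29 reads per library, this value is a description and is not counted. CA5B was higher in WT rats 25 to 32, at 139 ± 14.7 against 110 ± 8.70 CPM (SD, n = 4 each), a log2 difference of 0.44 (standard error 0.08, edgeR adjusted p = 0.00319).

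CA8 and CA14 were lower in WT rats 25 to 32. CA8 had 27 ± 2.86 against 36.8 ± 3.37 CPM (SD, n = 4 each), a log2 difference of -0.34 (standard error 0.08, edgeR adjusted p = 0.0156). CA14 had 67.6 ± 11.8 against 108 ± 20.8 CPM (SD, n = 4 each), a log2 difference of -0.56 (standard error 0.16, edgeR adjusted p = 0.0313). The CA14 call was lost without WT rat 17, 21, 25, 27, 29 or 31 (log2 differences of -0.61 to -0.41), and the CA8 call without WT rat 19 or 29 (-0.30 and -0.29). CA2, CA4, CA12 and CA13 did not pass the test, with log2 differences of -0.07, 0.21, 0.02 and 0.21. Thus 3 of the 7 members other than CA3 and CA9 passed, beside 18.3% of all symbols (8.79% higher, 9.54% lower).

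In Ctns KO rats CA3 and CA13 were both higher in 25 to 32. CA3 went from 6.09 ± 2.32 to 21.3 ± 3.82 CPM (SD, n = 4 each), a log2 difference of 1.78 (standard error 0.23, edgeR adjusted p = 0.000355). CA13 went from 2.0 ± 0.396 to 3.89 ± 0.965 CPM (SD, n = 4 each), a log2 difference of 0.94 (standard error 0.21, edgeR adjusted p = 0.00441). KO rat 32 had 2.55 CPM of CA13, just under the 2.58 CPM of KO rat 20, and after TMM scaling the 2 ranges did not overlap.

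CA12 was lower in KO rats 25 to 32, at 384 ± 86.8 against 597 ± 20.1 CPM (SD, n = 4 each), a log2 difference of -0.67 (standard error 0.12, edgeR adjusted p = 0.0019). CA14 was lower as well, at 68.6 ± 5.55 against 100.0 ± 19.1 CPM (SD, n = 4 each), a log2 difference of -0.57 (standard error 0.12, edgeR adjusted p = 0.00477). CA8 and CA5B passed with smaller log2 differences of -0.22 (edgeR adjusted p = 0.0208) and 0.20 (edgeR adjusted p = 0.0257), and each call was lost without 1 of 2 rats (KO rat 20 or 28 for CA8, and 18 or 26 for CA5B). CA2 and CA4 did not pass, with log2 differences of -0.09 and -0.02. Thus 6 of 8 members tested passed, beside 46.0% of all symbols (22.6% higher, 23.4% lower). CA12 passed in KO rats and not in WT rats, and whether its range difference depends on genotype was not tested.

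**Figure D3:**
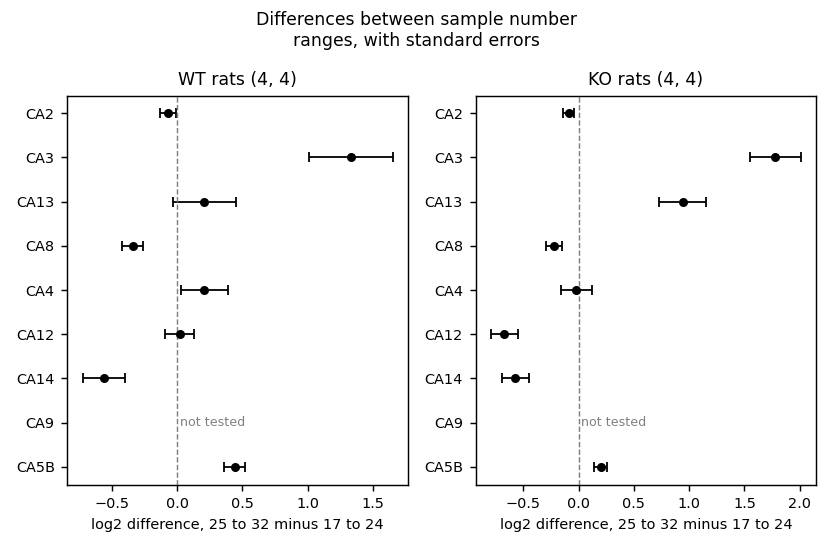
Log2 differences between sample numbers 25 to 32 and 17 to 24, in WT rats and in KO rats. Points are edgeR's fitted values with standard errors, 4 rats against 4, and CA9 was below the filter. CA3 lies at 1.33 in WT rats, where it is a description, and at 1.78 in KO rats, and CA14 is lower in both (-0.56 and -0.57).

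In mice the values are the deposited scaled ones, in which 1 is the 75th percentile of a library. By genotype, 8 of the 9 members overlapped between the groups. CA3 had 1.57, 0.292, 0.320 and 0.368 in KO mice 3, 5, 6 and 8 and 0.375, 1.30, 0.955 and 0.915 in WT mice 1, 2, 4 and 7. KO mouse 3 was thus the highest of all 8 and the other KO mice the lowest, while WT mouse 1 lay beside them. The log2 difference on the log2(value + 1) scale was -0.25 (standard error 0.26, limma), and leaving out single mice gave values from -0.48 (standard error 0.17, without KO mouse 3) to -0.14. On that scale the changes of low genes are understated.

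CA13 was the mouse member whose groups did not overlap. KO mice 3, 5, 6 and 8 had 0.0956, 0.122, 0.117 and 0.101, and WT mice 1, 2, 4 and 7 had 0.0632, 0.0619, 0.0696 and 0.0829. The log2 difference was 0.05 (standard error 0.01) in limma, the only member value past the threshold, and 0.62 with edgeR on the recovered reads (56 to 185 per library). It was past the threshold without KO mouse 3 or WT mouse 7, but not without any of KO mice 5, 6 and 8 or WT mice 1, 2 and 4. Of all 17376 symbols, 4.32% were past it (3.5% higher, 0.817% lower), and 11.6% had groups that did not overlap. The 1 of 9 members without overlap is near that last share, and the members were chosen on this contrast, so nothing is read from the count. CA13 values lay higher in KO animals in both species, and the difference between the species was not tested.

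CA2 had 11.3 to 12.5 in KO and 12.1 to 13.4 in WT mice, with a log2 difference of -0.11 (standard error 0.05). CA5B was even in KO mice, at 1.64 to 1.74, and spread from 1.72 to 3.05 in WT mice, with a log2 difference of -0.25 (standard error 0.12). CA4 had 2.31 to 2.77 in KO and 1.39 to 3.36 in WT mice, CA14 2.74 to 3.76 and 2.2 to 4.64, and CA9 0.0791 to 0.127 and 0.0397 to 0.147. In each of these 3 membrane-bound members the KO range lay inside the WT range, and WT mice 2 and 7 had more than WT mice 1 and 4. CA12 had 9.42 to 10.7 in KO and 9.30 to 11.7 in WT mice, and CA8 0.168 to 0.205 and 0.190 to 0.258.

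**Figure D4:**
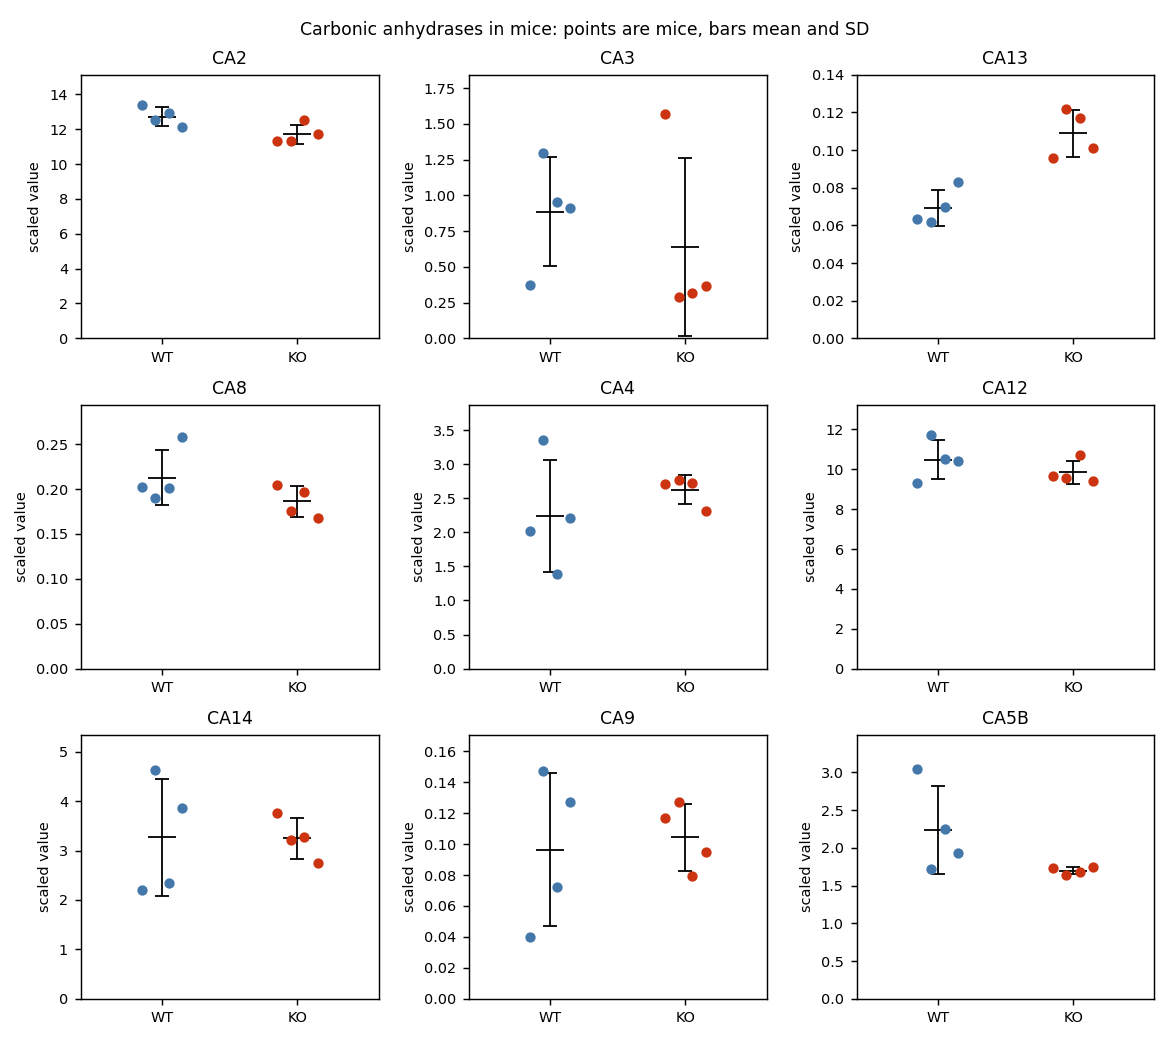
The 9 carbonic anhydrases in mice, 1 panel per gene, as scaled values (1 is the 75th percentile of a library, axes start at 0). Points are single mice and black bars give the mean and SD of 4 mice. KO mouse 3 stands alone at 1.57 for CA3, CA13 is higher in all 4 KO mice, and the other panels overlap.

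Levels can be set against each other per exon length in the mouse, as RPKM (CPM per kilobase) with merged exons of GENCODE vM21. In WT mice CA2 led with 247 ± 13.3 RPKM (SD, n = 4), above all others in every mouse. CA12 with 64.9 ± 5.56, CA14 with 60.2 ± 21.1 and CA4 with 53.5 ± 18.8 RPKM followed (SD, n = 4 each), and neighbours among these 3 overlapped. CA5B at 16.6 ± 4.45 and CA3 at 14.5 ± 6.17 RPKM overlapped as well and lay below CA4. CA8, CA9 and CA13 were lowest, at 2.59 ± 0.374, 1.96 ± 0.984 and 1.41 ± 0.199 RPKM (SD, n = 4 each), again with overlapping neighbours. No exon lengths were used for the rat, so rat genes are compared only with themselves.

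CA2, CA3, CA13 and CA14 lie on mouse chromosome 3, the first 3 of them in 1 cluster (GRCm38). Car13 occupies chr3:14641727-14663002, Car3 chr3:14863512-14872523 and Car2 chr3:14886273-14900770, all on the plus strand, and Car1 lies between Car13 and Car3. The cluster spans 259 kb, and 13.7 kb separate Car3 from Car2. The mean ratio of KO to WT rats was 30.6 for CA3 and 4.0 for CA13, and 1.06 for CA2, the neighbour of CA3 in the mouse. CA1, the red cell form, had at most 1 read in any rat.

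CA3 is a known product of fat and muscle, so markers of these cells are given beside it. In mice the adipocyte markers stood out in the same 2 animals: KO mouse 3 and WT mouse 7 had 8.34 and 6.55 CPM of ADIPOQ (adiponectin), 64.9 and 42.2 CPM of CFD (adipsin), and 3.78 and 4.57 CPM of PLIN1 (perilipin). The other 6 mice had at most 0.78 CPM of ADIPOQ and 3.34 CPM of CFD. KO mouse 3 also had the highest CA3, at 77.9 CPM, and WT mouse 7 had 42.9 CPM. WT mice 2 and 4, with 60.3 and 45.6 CPM of CA3, had no ADIPOQ read. The part of adipocyte RNA in the CA3 values of mice was not tested. Without KO mouse 3 and WT mouse 7, an alternative chosen after seeing the data, the CA3 log2 difference was -0.47 (standard error 0.20) and none of the 9 members was past the threshold. Of the 10 adipocyte markers none passed the test in mice, and the summed level was 60.7 to 198 CPM in WT and 71.0 to 212 CPM in KO mice.

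**Figure D5:**
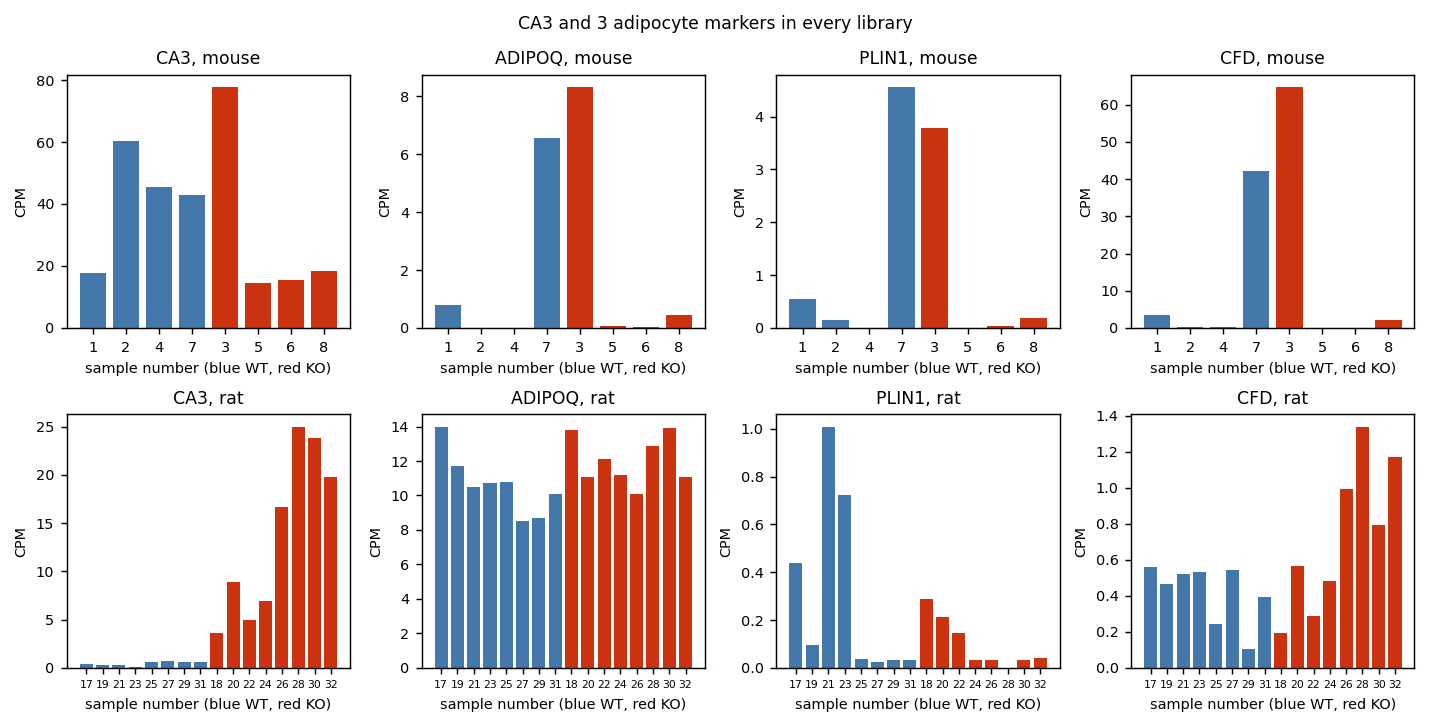
CA3 and the adipocyte markers ADIPOQ, PLIN1 and CFD in CPM, for each of 8 mice (top) and 16 rats (bottom), WT in blue and KO in red. In mice the markers are high in WT mouse 7 and KO mouse 3. In rats CA3 is high in every KO animal. PLIN1 stays at or below 1.01 CPM and ADIPOQ between 8.52 and 14.0 CPM in both genotypes. CFD is higher in KO than in WT rats 25 to 32, with means of 1.08 and 0.322 CPM.

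In rats some fat markers overlapped between the genotypes and others were higher in KO rats. PLIN1, a coat protein of fat droplets, had at most 0.289 CPM in KO and 1.01 CPM in WT rats, LEP (leptin) had at most 3 reads in any library, and ADIPOQ had 10.1 to 13.9 CPM in KO and 8.52 to 14.0 CPM in WT rats. Of the 8 adipocyte markers listed for the rat, 5 could be tested over all rats and 2 were higher in KO rats, beside 15.2% of all symbols. These were FABP4, a fatty acid carrier that was 3.79 ± 0.954 against 1.53 ± 0.714 CPM (SD, n = 8 each, log2 difference 1.22, edgeR adjusted p = 0.00397), and the lipase LIPE. LIPE lay right at the threshold, with a log2 difference of 0.23 and an edgeR adjusted p that rounds to 0.05. Within the ranges 2 of 5 were higher in KO rats 17 to 24 and 4 of 5 in KO rats 25 to 32, beside 5.07% and 21.8% of all symbols. The count for 25 to 32 includes CFD, which passed the filter on low counts only through the KO rats.

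CIDEC, another lipid droplet gene, was higher in KO rats within each range but did not pass over all rats. It had 1.76 ± 0.60 CPM in KO and 0.597 ± 0.229 CPM in WT rats 17 to 24 (SD, n = 4 each, log2 difference 1.55, edgeR adjusted p = 0.0135). These WT rats had only 9 to 23 reads of CIDEC per library. In 25 to 32 CIDEC had 11.6 ± 2.18 CPM in KO and 6.58 ± 1.37 CPM in WT rats (SD, n = 4 each, log2 difference 0.66, edgeR adjusted p = 0.015). Between the ranges it was higher in 25 to 32 in WT rats (log2 difference 3.58, edgeR adjusted p = 2.25e-05) and in KO rats (2.7, edgeR adjusted p = 2.39e-05). WT rats 25 to 32, at 5.27 to 7.88 CPM of CIDEC, all lay above KO rats 17 to 24, at 1.22 to 2.47 CPM. CFD was higher in KO than WT rats 25 to 32, at 1.08 ± 0.235 against 0.322 ± 0.189 CPM (SD, n = 4 each, log2 difference 1.51). With 3 to 22 reads per library in these WT rats, CFD passed the filter on low counts only through the KO rats, so this value is a description. The summed adipocyte marker level was 33.3 to 40.3 CPM in KO and 31.9 to 33.6 CPM in WT rats 17 to 24, and 42.6 to 52.5 against 28.7 to 32.5 CPM in 25 to 32, and its part in the CA3 values was not tested.

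Muscle markers were low in every rat. The summed level of 10 skeletal muscle markers was 5.75 to 7.54 CPM in KO and 4.93 to 7.12 CPM in WT rats, and 0 of the 4 tested passed. CKM, the muscle creatine kinase, had at most 3 reads per library.

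Genes of other cells moved with the rat genotype too. Macrophage markers were higher in KO rats for 7 of 8 tested, beside 15.2% of all symbols, with summed levels of 169 to 496 CPM against 105 to 180 CPM in WT rats, and their median log2 difference was 1.02 beside -0.02 over all symbols. In mice 5 of 9 were higher in KO animals, beside 3.5% of all symbols, with summed levels of 216 to 266 CPM against 137 to 143 CPM. Proximal tubule markers were lower in KO rats for 9 of 13 tested, beside 12.3% of all symbols, and higher for 0, with a median log2 difference of -0.58. Among them PCK1, the entry enzyme of gluconeogenesis, had 2900 ± 639 CPM in KO and 5570 ± 1670 CPM in WT rats (SD, n = 8 each, log2 difference -1.05, edgeR adjusted p = 0.00187). In mice 2 of 15 were lower in KO animals, beside 0.817% of all symbols, and 0 higher. They were FBP1 (log2 difference -0.38, limma adjusted p = 0.0482) and SLC7A13 (-0.01, limma adjusted p = 0.0402). SLC7A13 was very low in both groups, at scaled values of 0.00603 ± 0.002 in KO and 0.0135 ± 0.00253 in WT mice (SD, n = 4 each). Of 5 thick limb and distal tubule markers tested in rats, UMOD (uromodulin) and CALB1 (calbindin) were higher in KO animals, at log2 differences of 0.31 and 0.36 (edgeR adjusted p = 0.0449 and 0.0257), and CLDN10 was lower at -0.50 (edgeR adjusted p = 0.000326). In mice their summed level was 10000 to 11100 CPM in KO and 8170 to 9480 CPM in WT animals. The part of these cell types in the values of CA3, CA13, CA4 and CA12 in rats, or of CA13 in mice, was not tested.

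By the pattern over all 16 rat libraries, the genes nearest to CA3 were HAVCR1, CDCA3, PRC1, CDCA7 and CKS2. The measure was the root mean square difference between z-scored log2 CPM profiles, which was 0.166 to 0.194 for these 5 among 10827 genes of at least 1 CPM. HAVCR1 encodes the tubular injury marker KIM-1, and its rat values were not all whole reads. CDCA3, PRC1, CDCA7 and CKS2 are cell division genes. CA13 was the nearest carbonic anhydrase, in place 76, and the next member was CA5B in place 3548. In the 8 mice the nearest genes to CA3 were ROPN1L, CDC42EP3, ABRAXAS1, ACTR8 and GNRH1, at 0.326 to 0.452 among 12495 genes, so no gene was among the nearest 5 in both species. All libraries share their scaling, and these likenesses are descriptions without a test.

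Of the rest of the family 3 genes could be tested in rats, and 2 were lower in KO animals over all rats and in rats 25 to 32, beside 12.3% and 22.1% of all symbols. CA6, the secreted form, had 27.6 ± 1.86 CPM in KO and 32.4 ± 5.03 CPM in WT animals (SD, n = 8 each), and it was lower with a log2 difference of -0.33 (standard error 0.11, edgeR adjusted p = 0.0264). In rats 25 to 32 its log2 difference was -0.54 (standard error 0.08, edgeR adjusted p = 0.000341), and KO and WT rats did not overlap there. CA7, a cytosolic form, had 7.68 ± 0.832 and 8.84 ± 0.54 CPM (SD, n = 8 each), with a log2 difference of -0.30 (standard error 0.09, edgeR adjusted p = 0.0163), and did not overlap in rats 25 to 32 either, at -0.39 (standard error 0.10, edgeR adjusted p = 0.0118). Neither passed in rats 17 to 24. CA11, a form without enzyme activity, did not pass between genotypes at 0.07 (standard error 0.15). Between the ranges CA6 was higher (log2 difference 0.47, edgeR adjusted p = 0.00689) and CA11 lower (-0.54, edgeR adjusted p = 0.0471) in WT rats 25 to 32, and none of the 3 passed in KO rats. CA1 and CA5A had at most 2 reads in any rat. CA10 was not among the rat symbols, and CA15 was not among those of either species, so neither could be described there. In mice 0 of the 6 other family members passed (CA1, CA5A, CA6, CA7, CA10 and CA11, limma adjusted p of 0.459 to 0.991), beside 4.32% of all symbols. CA1, CA6 and CA10 had at most 1 read in any mouse, too few to show a difference.

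Carbonic anhydrases work with transporters of bicarbonate and protons. Of 18 such genes tested in rats 3 were lower in KO animals, a share near the 12.3% of all symbols, and 0 higher, with a median log2 difference of -0.03 beside -0.02 over all symbols. They were SLC4A4, the basolateral sodium bicarbonate cotransporter, with 278 ± 102 against 434 ± 142 CPM (SD, n = 8 each, log2 difference -0.73, edgeR adjusted p = 0.027), SLC9A3, the apical sodium proton exchanger, with 170 ± 45.5 against 227 ± 24.5 CPM (SD, n = 8 each, -0.51, edgeR adjusted p = 0.0119), and the water channel AQP1 with 1130 ± 66.3 against 1680 ± 311 CPM (SD, n = 8 each, -0.67, edgeR adjusted p = 0.000702). In mice 1 of 21 passed, a share near the 4.32% of all symbols, namely the chloride bicarbonate exchanger SLC26A4, which was higher in KO mice (3.86 ± 0.208 against 2.96 ± 0.322 as scaled values, SD, n = 4 each, log2 difference 0.30, limma adjusted p = 0.049).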

How the data were processed

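Bulk RNA sequencing of kidney was analysed from 8 mice and 16 rats, with groups taken from the genotype and title labels. The 9 carbonic anhydrases and all gene lists were chosen with earlier results of these data known. Stranded mRNA libraries were made from 100 ng of total RNA. The submitters' processing notes name bcl2fastq 2.20, STAR 2.7.3, R 3.6.1, DESeq2 1.24.0 and the builds rn5 and mm10. The mouse table that the authors deposited holds a normalized signal, worked out from the values as (reads + 0.5) divided by (75th percentile + 0.5), from which whole reads were recovered for 99% of values (within 0.01). The deposited rat table holds estimated counts, the reads plus 1/6, which were rounded to whole reads after taking off 1/6 (97.7% were whole).

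Mouse values were tested with limma 3.58.1 (trend, robust) on log2(value + 1) without a filter, and rat reads with edgeR 4.0.16 (TMM, filterByExpr, robust quasi-likelihood test) in R 4.3.3, without covariates. The Benjamini-Hochberg adjustment ran over all symbols tested, with a threshold of 0.05. Both were tested on simulated data with 200 changed genes. The mouse fit recovered 72.5% of them with 5 false calls. The rat fit recovered 100.0% with 16 libraries (8 false calls) and 99.5% with 8 libraries (12 false calls). Symbols are of the human style and may pool rodent genes. Depth (19309449 to 44449859 reads per library) limits CA3 in WT rats, CA9 and CA13, and intervals of counts cover counting error only. Named were the 9 members, the other family members, CTNS, up to 4 genes per list and species with the largest change past the threshold together with defining markers, and the 5 genes nearest to CA3 per species. Given are the lists of thick limb, proximal tubule, macrophage, adipocyte, muscle, hypoxia and bicarbonate transport genes by genotype, and those of principal and intercalated cells by number range. Alternatives were another pseudocount, filters, size factors, DESeq2 1.42.0, limma-voom, the number range as a covariate and leaving out each animal.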

Additional observations from a re-analysis of the deposited data

Results flagged for a closer look

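Within groups of 4 animals, 54 combinations of member and group were searched for a highest or lowest animal far from the others, and chance flags about 1 in 20 groups. Mouse Ctns KO 3 stood apart for CA3, at a scaled value of 1.57, far above the other 3 KO mice. This mouse also had 2.54 CPM of XIST, against 987 to 1120 CPM in the other KO mice, and without it the CA3 log2 difference in mice was -0.48. Mouse Ctns KO 8 was low for CA4, at 2.31. Mouse Ctns WT 7 was high for CA8, at 0.258. Rat Ctns KO 18 was low for CA5B among KO rats 17 to 24, at 108 CPM. Rat Ctns KO 32 was high for CA9 among KO rats 25 to 32, at 0.567 CPM, which rests on 14 reads.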

How the results depend on the processing

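No value of a member past the threshold turned its direction under any alternative. Of 636 alternative values of single members 599 stayed on the same side of the threshold, 32 lost a call, 31 of them with 1 animal left out, and 5 gained one. In mice 1 member was past the threshold, CA13, and the count was 0 with only symbols of a mean value of at least 0.1. That filter removed CA13, with means of 0.109 in KO and 0.0694 in WT mice, so CA13 was not tested there. The count was 2 with DESeq2 on recovered reads (CA13 higher, CA5B lower), 0 without the 2 mice richest in adipocyte markers, and 0 to 1 with each mouse left out. The mouse symbols past the threshold numbered 751 in all, 1198 with edgeR and 1520 with DESeq2 on recovered reads, 160 without those 2 mice and 352 to 683 with each mouse left out. Removing animals leaves fewer samples, and apart from this and the filter that removed CA13 the cause was not tested. For the number ranges in WT rats the count of 4 members, CA3 included, was 2 to 4 with each rat left out, 2 without WT rat 29, and the symbols past the threshold went from 2108 to 1370 without that rat. In rats 17 to 24 the 843 symbols past the threshold became 504 to 930 with each rat left out. CA9, below the filter, was past the threshold over all rats without a filter on low counts and with DESeq2 (log2 differences of 1.43 and 1.47), and in rats 25 to 32 without a filter (1.32) but not with DESeq2 (1.36). With the number range as a covariate 5 members were past the threshold, CA8 being added. CA8 over all rats was past it without KO rat 20 or WT rat 29 (-0.24 and -0.23), and CA14 in rats 25 to 32 without WT rat 25 (-0.27). No paired analysis was possible because the groups compared share no sample numbers. Depth limits CA9 and, in WT rats, CA3.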

Other observations

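Bicarbonate and proton transport genes differed between the rat number ranges. In WT rats 1 of 17 tested was higher in 25 to 32 (AQP1) and 6 were lower, beside 8.79% and 9.54% of all symbols, with a median log2 difference of -0.31 beside -0.01 over all symbols. ATP12A, a proton potassium pump, fell by 1.76 on the log2 scale (edgeR adjusted p = 0.0339), the sodium proton exchanger SLC9A2 by 0.93 (edgeR adjusted p = 0.000738), SLC4A9 of the intercalated cells by 0.78 (edgeR adjusted p = 0.000935) and the ammonia channel RHCG by 0.59 (edgeR adjusted p = 0.000531). In KO rats 10 of 18 were lower, beside 23.4% of all symbols, and 0 higher, with a median of -0.52.

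Markers of several nephron cell types differed between the ranges as well. In WT rats 25 to 32, intercalated cell markers were lower for 7 of 8 tested, principal cell markers for 4 of 5 and thick limb and distal tubule markers for 3 of 5, while proximal tubule markers were higher for 7 of 13 and lower for 2. The principal cell marker AQP3 was higher there. Of all symbols, 9.54% were lower and 8.79% higher. In KO rats 25 to 32 the lower ones were 5 of 8, 1 of 5, 3 of 5 and, for proximal tubule, 4 of 13, beside 23.4% of all symbols. The 1 of 5 and 4 of 13 are near that share. UMOD and ANPEP were higher in KO rats 25 to 32, beside 22.6% of all symbols. The part of these cells in the lower CA8 and CA14 was not tested.

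Hypoxia-inducible genes did not move one way. In rats 1 of 15 tested was higher in KO animals, beside 15.2% of all symbols, LDHA at 318 ± 83.7 against 211 ± 10.6 CPM (SD, n = 8 each, log2 difference 0.49, edgeR adjusted p = 0.00993), and 3 were lower, beside 12.3%: PFKFB4, ANKRD37 and BNIP3 at log2 differences of -0.81, -0.41 and -0.25 (edgeR adjusted p = 0.00754, 0.0357 and 0.00226). In mice 1 of 16 passed, a share near the 4.32% of all symbols (3.5% higher), so nothing is read from the count. It was STC2, which was higher in KO mice at 0.341 ± 0.041 against 0.117 ± 0.00942 as scaled values (SD, n = 4 each, limma adjusted p = 0.00322).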
